A study of Mus musculus with 10 samples.

Results

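RNA of innate lymphoid cells (ILCs) from 4 skin populations of adult mice of the B6 strain was compared by setting 2 of the populations against the other 2. One side, called the CCR6 side here, held the 3 epidermal and the 2 dermal CCR6+ libraries. The other, called the Sca1 side, held the 2 dermal Sca1+ and the 3 subcutaneous libraries. These 5 and 5 libraries are all 10 of the series, and the labels give all of them the same strain, tissue and stage and no treatment. CCR6 guides cells towards the chemokine CCL20, and Ly6a encodes the surface protein Sca1. The sides do not follow depth in the skin alone, since both dermal populations came from the same layer, and no label says that epidermal or subcutaneous cells were sorted on either marker. Of 16208 genes tested, 1558 had all 5 libraries of one side above all 5 of the other in normalized counts (CPM, scaled to a common library size by TMM), and these genes are described in most detail.

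ILCs are tissue lymphocytes without rearranged antigen receptors. Group 2 ILCs depend on the transcription factor GATA3, respond to epithelial alarmins such as IL-33 and IL-25, and make type 2 cytokines such as IL-5 together with growth factors. Group 3 ILCs include lymphoid tissue inducer-like cells, and many carry CCR6. Skin holds ILCs in the epidermis around hair follicles, in the dermis and in the fatty layer beneath it.

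Library totals lay between 11627222 and 18118544 expected counts, between 14983 and 19376 genes had a count, and 3 counts of a library equalled 0.166 to 0.258 CPM. Every pair of replicates differed by more than sampling noise (chi-square over its degrees of freedom 40.9 or more), so each library was counted once. No label states that replicates came from separate animals, so p-values measure only how far these libraries spread, and that spread may be technical. In the comparison of the sides, differences between the 2 populations of a side are part of that spread as well. The design text speaks of triplicates, while 2 libraries of either dermal population were analysed here. Genes of lymphocytes and ILCs were present in every library. Ptprc (CD45) had 640.5 to 1270 CPM on the CCR6 side and 867 to 1327 CPM on the Sca1 side, and Il7r had 479 to 546 CPM on the CCR6 side and 521 to 602 CPM on the Sca1 side. Id2, a transcriptional regulator needed for ILC development, had 1392 to 1829 CPM on the CCR6 side and 1716 to 2255 CPM on the Sca1 side. Cd3e, the T cell receptor component, had 10.6 to 80.1 CPM on the CCR6 side and 1.98 to 48.1 CPM on the Sca1 side, with the highest value in dermal CCR6+ replicate 1. Ncr1 of NK cells reached at most 9.09 CPM except in subcutaneous replicate 2, which had 63.6 CPM. Itgam, known from myeloid cells, had 0 CPM in epidermal, at most 10.55 in dermal and 96.5, 105 and 39.7 in subcutaneous libraries. Itgax reached 18.15 CPM, in subcutaneous replicate 2. In such bulk libraries, fewer cells of a type and less RNA per cell cannot be told apart.

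The genes behind both sort markers separated the sides completely, also in the libraries whose labels name no marker. Ly6a (chr15:74994877-74998031, - strand) had 149, 223 and 248 CPM in epidermal, 213 and 101 in dermal CCR6+, 1418 and 1394 in dermal Sca1+ and 1208, 1486 and 1866 in subcutaneous libraries. The highest library of the CCR6 side was thus far below the lowest of the Sca1 side (log2 fold change -2.98 ± 0.26 (SE), adjusted p = 0.000267). Ccr6 (chr17:8236043-8257141, + strand) had 975, 1354 and 1055 CPM in epidermal, 779 and 888 in dermal CCR6+, 40.9 and 102 in dermal Sca1+ and 0, 24.1 and 0.159 in subcutaneous libraries. Its libraries did not overlap either, but it was not called, at a log2 fold change of 4.92 ± 1.38 (adjusted p = 0.0593, quasi-likelihood test of edgeR), and its Sca1-side libraries ranged from 0 counts to 102 CPM. In an edgeR model with the 4 populations as terms, the mean contrast of the sides was 5.33 ± 1.12 (adjusted p = 0.00972). In the dermis these genes chose the cells, so their difference there is no finding. Reads of the near-identical Ly6 family members may be divided between genes with error.

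Across all genes, 1046 (6.45%) passed an adjusted p under 0.05 between the sides, 399 (2.46%) higher on the CCR6 side and 647 (3.99%) higher on the Sca1 side. A fold change is given throughout as CCR6 side over Sca1 side on the log2 scale, with its SE and edgeR's Benjamini-Hochberg adjusted p over all genes tested, and "called" means an adjusted p under 0.05. All libraries of the CCR6 side lay above all of the Sca1 side for 668 genes (4.12%), of which 351 (2.17%) were called. The reverse order held for 890 genes (5.49%), of which 496 (3.06%) were called. On the deposited TPM values the order of these counts turned round, with the CCR6 side above for 819 genes and the Sca1 side above for 779. At the edge of this rule, the lowest CCR6-side library of Thy1 was 1.004 times its highest Sca1-side library, and that ratio was 0.995 for Hcls1. On the other side, the ratio was 1.006 for Resf1 and 0.999 for Gsn. With 1 epidermal or 1 subcutaneous library left out, between 427 and 509 genes were called. Without a dermal CCR6+ library 1409 (replicate 1) and 714 (replicate 2) were called, and without a dermal Sca1+ library 1015 (replicate 1) and 930 (replicate 2). The call was kept whichever library was left out for 161 of the 399 genes and 196 of the 647, and these included 45.9% and 38.9% of the called genes that did not overlap. Of the 199 called genes whose sides overlapped, 3 kept it.

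This contrast is made of a pair of comparisons that share no library, dermal CCR6+ with dermal Sca1+ cells and epidermal with subcutaneous cells. In a model with the 4 populations as terms, 104 genes (0.642%) were called in the dermis and 3268 (20.2%) between epidermis and subcutis. The 2 against 2 dermal libraries gave 35 to 155 calls when any 1 of the 10 was left out, the fewest without dermal CCR6+ replicate 2 and the most without dermal CCR6+ replicate 1. Of the 104 dermal genes, 98 (94.2%) had the same sign between epidermis and subcutis and 89 (85.6%) were called there with that sign, which is 2.72% of the genes called there. Of the 3268 genes, 2428 (74.3%) had the same sign in the dermis, beside 61.0% of all genes tested. Across all genes, which are not independent replicates, the fold changes of both pairs had a Pearson correlation of 0.219 and a Spearman correlation of 0.305, and 0.458 and 0.505 over the 7738 genes with at least 20 CPM. These correlations describe genes of the same 10 libraries and carry no test.

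**Figure D1:**
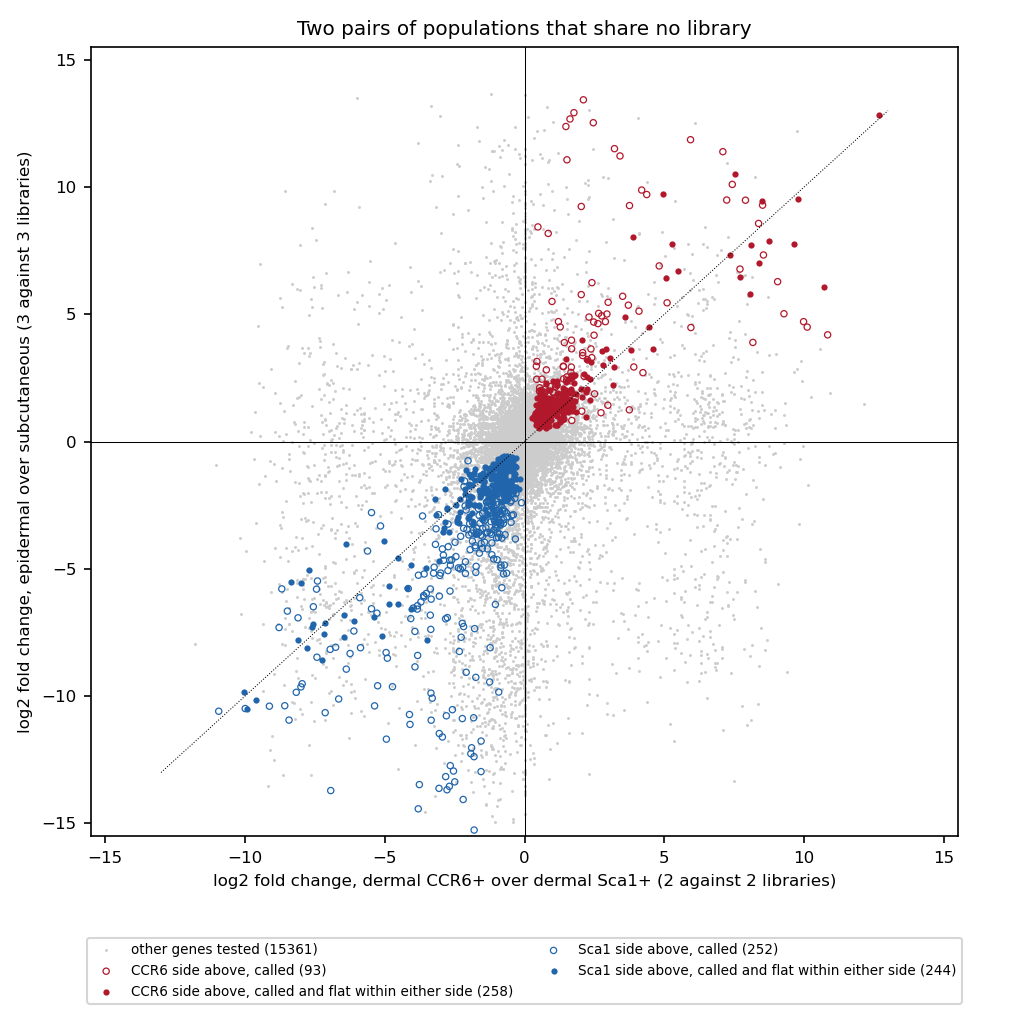
Log2 fold change of each tested gene in the dermis (horizontal, dermal CCR6+ over dermal Sca1+, 2 against 2 libraries) and between layers (vertical, epidermal over subcutaneous, 3 against 3 libraries). Coloured points are the 351 and 496 called genes whose sides do not overlap, filled where both populations of a side differ by less than 1 on the log2 scale, and the dotted line marks equal change. Many open blue points lie far below that line, where the difference between layers exceeds the one within the dermis.

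A stricter group had levels that changed between the sides and not much within them. These genes were called, did not overlap, and had population means within 1 log2 unit of each other on both sides. There were 258 such genes on the CCR6 side (1.59%) and 244 on the Sca1 side (1.51%), and they are called flat genes here. Leaving out 1 library gave 140 genes (without subcutaneous replicate 3) to 294 (without dermal CCR6+ replicate 1) on the CCR6 side. For the Sca1 side it gave 121 (without epidermal replicate 3) to 357 (without dermal CCR6+ replicate 1). A call was kept under every omission by 123 and 105 of them. Of the flat genes, 0 and 1 stood on the lists of marker genes of other skin cells, beside 119 of all 16208 genes tested. Counts this small do not set the flat genes apart from other genes. The test of whether the difference between layers departs from that in the dermis called 775 genes (4.78%), among them 0 of 258 and 12 of 244 flat genes, which the flat rule itself keeps low. Of the 258, 27 had an unadjusted p under 0.05 in that test of edgeR, and DESeq2 called 10 and limma 6.

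Asic3, a subunit of acid-sensing ion channels known from sensory neurons, was detected on the CCR6 side only. It had 86.6, 42.3 and 51.7 CPM in the epidermal and 41.4 and 64.9 CPM in the dermal CCR6+ libraries and no count in any of the 5 libraries of the Sca1 side. Against a floor of 3 counts over those 5 libraries together, it was at least 1345-fold higher (adjusted p = 0.000241, edgeR). Tff1, a trefoil peptide known from the gastric mucosa, had 79.9, 85 and 82.2 CPM in epidermal, 52.4 and 79.9 in dermal CCR6+, 0 and 0.773 in dermal Sca1+ and 0.0669, 0 and 0.0793 in subcutaneous libraries. The libraries of the Sca1 side held hardly any of it (log2 fold change 8.76 ± 0.83 (SE), adjusted p = 0.000392). Rnf208, which encodes a RING finger protein, had 146, 112 and 144 CPM in epidermal, 86.9 and 88.5 in dermal CCR6+, 0.89 and 3.09 in dermal Sca1+ and 2.28, 0.626 and 0.952 in subcutaneous libraries. Both populations of the CCR6 side again lay far above every library of the Sca1 side (log2 fold change 6.21 ± 0.48 (SE), adjusted p = 0.000194). Asic3 lies at chr5:24413392-24417835, + strand in the GENCODE M21 annotation of GRCm38, Tff1 at chr17:31161395-31165277, - strand and Rnf208 at chr2:25242255-25244262, + strand. Tff1 and Rnf208 each overlap a tested gene on the other strand, Gm15318 with a mean of 0.581 CPM on the CCR6 side and Cysrt1 with 38.1 CPM, and reads of such partners cannot be separated in these unstranded libraries. The calls of Asic3, Tff1 and Rnf208 were kept whichever library was left out.

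Among the flat genes of the CCR6 side were also a decoy receptor, a signalling inhibitor and a hair keratin. Il1r2, the IL-1 receptor without a signalling domain (chr1:40074079-40125231, + strand), had 352, 305 and 335 CPM in epidermal, 234 and 339 in dermal CCR6+, 23.6 and 52.2 in dermal Sca1+ and 25.5, 35.4 and 19 in subcutaneous libraries. No Sca1-side library came near the CCR6-side range (log2 fold change 3.33 ± 0.29 (SE), adjusted p = 0.000267). Ubash3a, a suppressor of signalling in T cells (chr17:31207873-31246892, + strand), had 132, 124 and 136 CPM in epidermal, 81 and 99.3 in dermal CCR6+, 14.9 and 6.62 in dermal Sca1+ and 14.7, 13.9 and 12.1 in subcutaneous libraries. For Ubash3a the log2 fold change was 3.20 ± 0.26 (SE), adjusted p = 0.000241. Krt83, a keratin of hair, had 113, 99 and 112 CPM in epidermal, 89.2 and 130.0 in dermal CCR6+, 10.2 and 13.5 in dermal Sca1+ and 12.9, 18.4 and 10.7 in subcutaneous libraries. Its dermal CCR6+ libraries spanned the range of the epidermal ones and were far from the Sca1 side (log2 fold change 3.05 ± 0.21 (SE), adjusted p = 0.000143). Arnt2, a partner of basic helix-loop-helix transcription factors, had 129.8, 53.6 and 53.8 CPM in epidermal, 79.1 and 58.1 in dermal CCR6+, 3.37 and 2.23 in dermal Sca1+ and 2.61, 12.4 and 4.2 in subcutaneous libraries. Arnt2 differed by 3.91 ± 0.53 (SE) on the log2 scale, adjusted p = 0.00283. Grin2d, a glutamate receptor subunit, had 51.8, 17.3 and 29.7 CPM in epidermal, 23.8 and 23.7 in dermal CCR6+, 0.636 and 1.55 in dermal Sca1+ and 2.81, 1.46 and 0 in subcutaneous libraries. Grin2d had a log2 fold change of 4.49 ± 0.82 (SE), adjusted p = 0.0132. Its locus overlaps Kdelr1 on the other strand, which had 63.9 CPM on the CCR6 side and 49.0 on the Sca1 side and was not called. All of these calls were kept whichever library was left out.

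**Figure D2:**
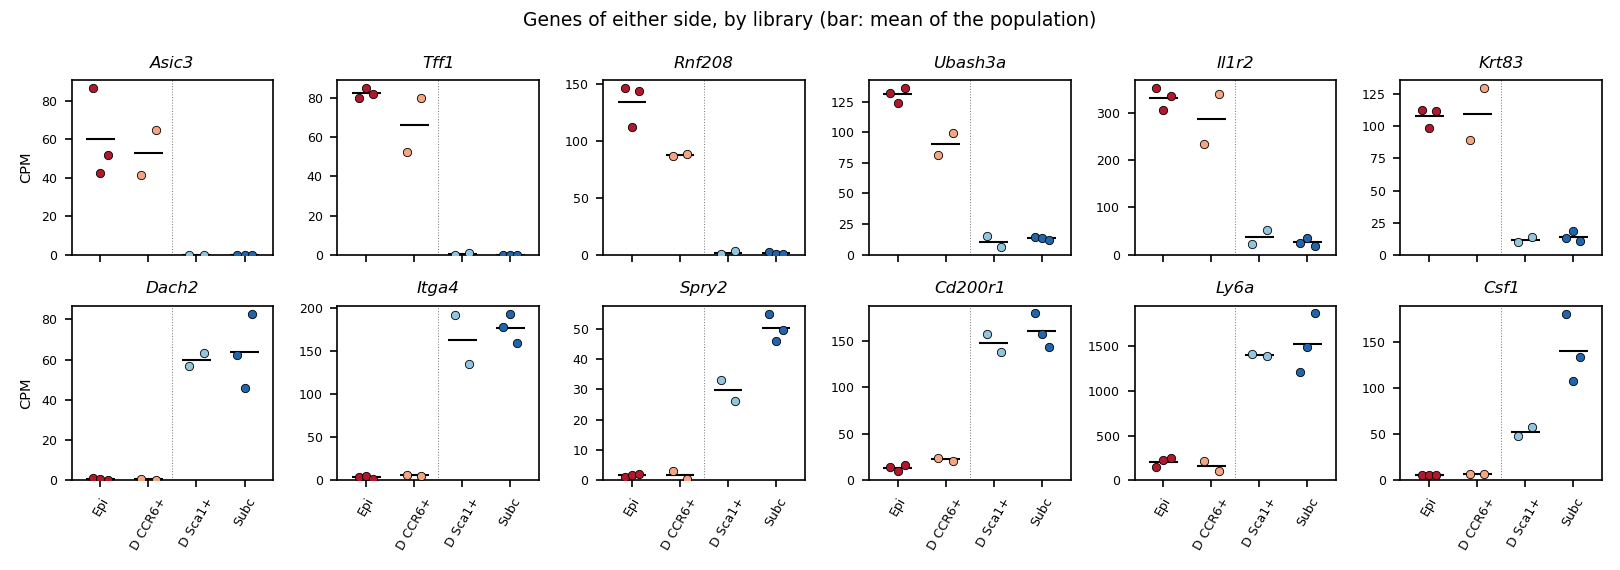
CPM (linear axes from 0) of 12 genes in every library, with epidermal, dermal CCR6+, dermal Sca1+ and subcutaneous libraries from left to right, and bars for population means. The first 6 genes are higher on the CCR6 side and the last 6 on the Sca1 side, and in none of them do libraries of the sides overlap. Csf1 is the one shown that was not flat, with higher levels in subcutaneous than in dermal Sca1+ libraries.

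The counterpart on the Sca1 side was led by Dach2, Itga4 and Spry2. Dach2, a transcriptional cofactor of the dachshund family on chromosome X (chrX:113297510-113836386, + strand), had 0.921, 0.418 and 0 CPM in epidermal, 0.449 and 0.396 in dermal CCR6+, 56.8 and 63.2 in dermal Sca1+ and 62.5, 45.7 and 82.8 in subcutaneous libraries. It was near the level of single counts in the CCR6-side libraries (log2 fold change -7.13 ± 0.67 (SE), adjusted p = 0.000392). Itga4, the integrin chain alpha 4, which pairs with beta 1 or beta 7 for adhesion to vessel walls and matrix (chr2:79255426-79333123, + strand), had 3.9, 5.01 and 1.44 CPM in epidermal, 6.35 and 5.15 in dermal CCR6+, 192 and 136 in dermal Sca1+ and 178, 194 and 159.5 in subcutaneous libraries. The ranges of dermal Sca1+ and subcutaneous libraries overlapped, and both were far above the CCR6 side (log2 fold change -5.30 ± 0.37 (SE), adjusted p = 0.000143). Spry2, a feedback inhibitor of growth factor signalling through the MAP kinases, had 1.03, 1.88 and 2.23 CPM in epidermal, 2.95 and 0.594 in dermal CCR6+, 33 and 26.3 in dermal Sca1+ and 54.9, 45.8 and 49.4 in subcutaneous libraries. For Spry2 the log2 fold change was -4.58 ± 0.46 (SE), adjusted p = 0.000563. Cd200r1, an inhibitory receptor of myeloid cells and group 2 ILCs, had 14.1, 10 and 16.3 CPM in epidermal, 23.9 and 21.2 in dermal CCR6+, 157 and 138 in dermal Sca1+ and 179, 158 and 143 in subcutaneous libraries, with a narrow spread on either side (log2 fold change -3.18 ± 0.24 (SE), adjusted p = 0.000194). Pxdn, a peroxidase of the extracellular matrix, had 0.132 to 4.46 CPM on the CCR6 side and 21.2 to 73.4 CPM on the Sca1 side (log2 fold change -4.54 ± 0.79 (SE), adjusted p = 0.0104). Nedd4l, a ubiquitin ligase, had 3.17 to 11.8 CPM on the CCR6 side and 41.1 to 52.8 CPM on the Sca1 side (log2 fold change -2.83 ± 0.38 (SE), adjusted p = 0.00283). Hba-a1, a haemoglobin chain and marker of red blood cells, had 5.37 to 35.2 CPM on the CCR6 side and 136 to 293 CPM on the Sca1 side (log2 fold change -3.21 ± 0.45 (SE), adjusted p = 0.00349), and its reads may be split with a near-identical copy. The calls of these 7 genes were kept whichever library was left out. Itga4 overlaps the first tested gene on the other strand, Cerkl, which had 2.62 CPM on the Sca1 side.

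The sequence before the start of one leading flat gene of either side is shown. Both were chosen because they hold the 6 letters TGTGGT, the core bound by RUNX factors, here in capitals as TGTGGT or its reverse complement ACCACA. The sequences are from RefSeq (GRCm38.p6), 5′ to 3′ on the gene's strand, and end before the annotated transcript of the gene. Asic3 is given from chr5:24413201-24413391, 191 bases on the + strand, and Itga4 from chr2:79255176-79255425, 250 bases on the + strand. The 250 bases before Spry2, another leading flat gene of the Sca1 side, do not hold these letters.
Asic3: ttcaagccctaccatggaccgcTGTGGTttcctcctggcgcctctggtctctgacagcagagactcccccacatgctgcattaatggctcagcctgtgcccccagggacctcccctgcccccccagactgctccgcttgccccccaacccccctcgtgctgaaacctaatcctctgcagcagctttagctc
Itga4: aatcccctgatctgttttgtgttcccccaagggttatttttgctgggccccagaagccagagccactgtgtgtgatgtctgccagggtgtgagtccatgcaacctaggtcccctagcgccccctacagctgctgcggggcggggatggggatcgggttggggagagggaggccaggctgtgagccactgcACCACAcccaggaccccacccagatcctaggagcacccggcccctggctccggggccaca
Of all tested genes with such a window, 9.22% held the letters in the 191 bases and 11.1% in the 250 bases, on either strand. In the full windows of 250 bases before and 50 after the start, available for 11572 of the 16208 genes, TGTGGT or its complement was found in 1500. It stood in 35 of 198 flat genes of the CCR6 side with a window (17.7%) and in 14 of 185 of the Sca1 side (7.57%), beside 12.96% of all windows. Over all called genes that did not overlap it stood in 43 of 272 (15.8%) and 49 of 366 (13.4%), so both shares lay nearer to each other and to that of all genes. GATAA, which GATA factors bind, was found in 16.7% of all windows and in 15.2% and 14.1% of those of flat genes of the CCR6 and the Sca1 side. AGGTCA, a site of nuclear receptors, was found in 12.3% of all windows and in 10.6% and 13.5% of those of flat genes. These are letter matches, counted without a test, and show no binding.

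Some genes of the CCR6 side set the sides apart without being flat, with intermediate levels in one or both dermal populations. Cx3cr1, the receptor of fractalkine, had 205, 186 and 176 CPM in epidermal, 80.7 and 95.6 in dermal CCR6+, 1.14 and 9.37 in dermal Sca1+ and 8.97, 6.61 and 0.555 in subcutaneous libraries. Cx3cr1 differed by 4.80 ± 0.73 (SE) on the log2 scale, adjusted p = 0.00555. Its dermal CCR6+ libraries had less than any epidermal library and far more than any library of the Sca1 side. The annotated Cx3cr1 locus overlaps 5 tested genes, of which Wdr48 and Csrnp1 were well expressed and neither was called. Tnfrsf8, which encodes the TNF receptor CD30, had 29.5, 24.7 and 36.7 CPM in epidermal, 20 and 24.6 in dermal CCR6+, 0.0636 and 0.688 in dermal Sca1+ and 0 in subcutaneous libraries. Tnfrsf8 had a log2 fold change of 7.52 ± 1.05 (SE), adjusted p = 0.00347. Ly6g5b, a Ly6 family member, had 511, 811 and 703 CPM in epidermal, 384 and 336 in dermal CCR6+, 59.8 and 54.8 in dermal Sca1+ and 12.1, 24 and 25.7 in subcutaneous libraries. For Ly6g5b the log2 fold change was 3.96 ± 0.47 (SE), adjusted p = 0.00166. The departure between both pairs was called for it (adjusted p = 0.0114). Apol9b, of the apolipoprotein L family with close paralogs, had 75.2, 98.1 and 108 CPM in epidermal, 25.6 and 22.3 in dermal CCR6+, 0 and 0.0859 in dermal Sca1+ and 1, 0.417 and 2.22 in subcutaneous libraries. Apol9b differed by 6.46 ± 1.0 (SE) on the log2 scale, adjusted p = 0.00603. Crmp1, known from axon guidance, had 365, 202 and 272 CPM in epidermal, 182 and 213 in dermal CCR6+, 35.9 and 35.1 in dermal Sca1+ and 7.63, 8.76 and 16 in subcutaneous libraries. Crmp1 had a log2 fold change of 3.58 ± 0.48 (SE), adjusted p = 0.00283. The overlapping Evc on the other strand had 0.76 CPM on the CCR6 side. Kcnmb4, a subunit of calcium-activated potassium channels, had 35.8 to 64.8 CPM on the CCR6 side and 0.87 to 6.61 CPM on the Sca1 side (log2 fold change 3.94 ± 0.52 (SE), adjusted p = 0.00271), and its antisense partner Kcnmb4os2 moved with it, at 4.98 and 0.254 CPM. Sprn, a relative of the prion protein, had 29 to 92.1 CPM on the CCR6 side and 0.0696 to 4.04 CPM on the Sca1 side (log2 fold change 4.77 ± 0.76 (SE), adjusted p = 0.00671). These calls were kept whichever library was left out.

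Hal, Skint10 and Krt10 met the same rule but were mostly epidermal. Hal, which encodes the histidine ammonia-lyase that makes urocanate in the outer epidermis, had 43.6, 139 and 177 CPM in epidermal, 5.26 and 2.97 in dermal CCR6+, 2.73 and 0 in dermal Sca1+ and 0, 0.139 and 0 in subcutaneous libraries. For Hal the log2 fold change was 6.92 ± 1.62 (SE), adjusted p = 0.0335. Skint10, of a family of membrane proteins of skin and thymic epithelium, had 13.4, 76.3 and 54.8 CPM in epidermal, 1.41 and 2.97 in dermal CCR6+, 0.508 and 0.258 in dermal Sca1+ and 0 in subcutaneous libraries. Skint10 differed by 7.51 ± 1.48 (SE) on the log2 scale, adjusted p = 0.017. Krt10, a keratin of differentiating keratinocytes, had 865, 1166 and 983 CPM in epidermal, 75.4 and 87.9 in dermal CCR6+, 56.3 and 60.9 in dermal Sca1+ and 2.81, 2.5 and 3.41 in subcutaneous libraries. Krt10 had a log2 fold change of 4.66 ± 1.24 (SE), adjusted p = 0.0489. The dermal log2 fold changes were 1.52 ± 1.06 (SE) for Hal, 2.46 ± 0.93 for Skint10 and 0.48 ± 0.22 for Krt10. None of these dermal differences was called (adjusted p = 0.654, 0.395 and 0.464, edgeR). The departure between both pairs was called for all 3, with an adjusted p of 0.0119 for Hal, 0.0128 for Skint10 and 3.34e-06 for Krt10. The call of Skint10 was kept under every omission, that of Hal was lost in 7 of 10 (adjusted p of up to 0.0812) and that of Krt10 in 9 of 10 (up to 0.102). The 20 tested genes of the keratinocyte list summed to 4444 to 12655 CPM in epidermal, 1988 to 2750 in dermal CCR6+, 2533 to 2819 in dermal Sca1+ and 124 to 274 in subcutaneous libraries, and their part in these results was not tested. Krt10 and Lor were the 2 members of that list called between the sides.

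Several leading genes of the Sca1 side had their highest levels in the subcutaneous libraries. Klrg1, an inhibitory lectin receptor of mature lymphocytes, had 0.434, 0.905 and 0.545 CPM in epidermal, 3.66 and 5.21 in dermal CCR6+, 178 and 188 in dermal Sca1+ and 681, 734 and 1074 in subcutaneous libraries. For Klrg1 the log2 fold change was -8.06 ± 0.96 (SE), adjusted p = 0.00166. It was higher in dermal Sca1+ than in dermal CCR6+ libraries (log2 CCR6+ over Sca1+ -5.36 ± 0.36 (SE), adjusted p = 0.000446) and higher again in subcutaneous ones (log2 dermal Sca1+ over subcutaneous -2.18 ± 0.29 (SE), adjusted p = 0.00373). Il1rl1, the IL-33 receptor ST2 (chr1:40429570-40465415, + strand), had 3.47, 0 and 0 CPM in epidermal, 0.77 and 0.132 in dermal CCR6+, 111 and 118 in dermal Sca1+ and 900.0, 819 and 897 in subcutaneous libraries. Il1rl1 differed by -9.30 ± 1.41 (SE) on the log2 scale, adjusted p = 0.00555. Ccr2, a receptor of monocyte chemoattractants, had 17.7, 1.25 and 20.5 CPM in epidermal, 27.5 in both dermal CCR6+ libraries, 264 and 402 in dermal Sca1+ and 743, 916 and 1082 in subcutaneous libraries. Ccr2 had a log2 fold change of -5.17 ± 0.74 (SE), adjusted p = 0.00373. Slc7a8, a transporter of neutral amino acids, had 7.53, 4.04 and 4.61 CPM in epidermal, 30 and 16 in dermal CCR6+, 299.5 and 357 in dermal Sca1+ and 630.5, 397 and 529 in subcutaneous libraries. For Slc7a8 the log2 fold change was -5.15 ± 0.60 (SE), adjusted p = 0.00156. Hs3st1, an enzyme that modifies heparan sulfate, had 3.04, 4.88 and 1.98 CPM in epidermal, 8.66 and 10.1 in dermal CCR6+, 153 and 143 in dermal Sca1+ and 309, 284 and 321 in subcutaneous libraries. Hs3st1 differed by -5.40 ± 0.51 (SE) on the log2 scale, adjusted p = 0.000392. Ctnna2, the neuronal alpha catenin, had 1 count over the CCR6-side libraries and 26.1 and 5.84 CPM in dermal Sca1+ and 39.3, 33.5 and 54.4 CPM in subcutaneous libraries, a ratio of 2699 with a 95% exact interval of 484 to 106653 for counting error. Each of these 6 calls was kept whichever library was left out.

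Alox5, Cd209f and Wfdc2 had by far their highest levels in the subcutaneous libraries, whereas Pirb and Lbp were found in both populations of the Sca1 side. Alox5, the 5-lipoxygenase of leukotriene synthesis, had 0, 0 and 0.0495 CPM in epidermal, 2.63 and 0 in dermal CCR6+, 13.2 and 24.1 in dermal Sca1+ and 475, 506 and 803 in subcutaneous libraries. Alox5 had a log2 fold change of -9.42 ± 1.76 (SE), adjusted p = 0.0143. The departure between both pairs was called for it (adjusted p = 0.00399). Cd209f, a C-type lectin, had 0.108, 0 and 0 CPM in epidermal, 1.41 and 0 in dermal CCR6+, 2.92 and 2.49 in dermal Sca1+ and 118, 345 and 213 in subcutaneous libraries. For Cd209f the log2 fold change was -8.81 ± 1.77 (SE), adjusted p = 0.0188. Wfdc2, a secreted protein of glandular epithelia, had no count on the CCR6 side, 1.72 and 0.172 CPM in dermal Sca1+ and 163, 71.5 and 94.3 CPM in subcutaneous libraries, at least 1884-fold higher over a floor of 3 counts in the 5 libraries together (adjusted p = 0.0375). Pirb, an inhibitory receptor of myeloid and B cells, had 3.47, 0.0697 and 0 CPM in epidermal, 0.128 and 0 in dermal CCR6+, 32.1 and 27.9 in dermal Sca1+ and 56.2, 98.6 and 44.5 in subcutaneous libraries. Pirb differed by -6.10 ± 1.30 (SE) on the log2 scale, adjusted p = 0.0242. Lbp, which binds bacterial lipopolysaccharide, had 0.921, 0 and 0.198 CPM in epidermal, 2.82 and 2.97 in dermal CCR6+, 31.8 and 34.5 in dermal Sca1+ and 20.5, 27.9 and 25.1 in subcutaneous libraries. Lbp had a log2 fold change of -4.34 ± 0.93 (SE), adjusted p = 0.0246. The call of Alox5 was kept under every omission. That of Cd209f was lost without epidermal replicate 1 (adjusted p = 0.0514), those of Pirb and Lbp in 3 of 10 omissions (up to 0.0606 and 0.0603) and that of Wfdc2 in 7 of 10 (up to 0.0817).

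Markers of other cell types moved with the sides as follows, and their part in the results was not tested. Over all genes tested, 6.45% were called in either direction. The 18 genes of macrophages, dendritic and Langerhans cells summed to 795 to 980 CPM in epidermal, 1878 to 2161 in dermal CCR6+, 1859 to 3691 in dermal Sca1+ and 7358 to 13065 in subcutaneous libraries. Of these, 9 were called higher on the Sca1 side, and Fcgr1 had no count on the CCR6 side. The 12 genes of simple and glandular epithelium summed to 98.1 to 251 CPM outside and 1903 to 4787 CPM in the subcutis, with 5 called and Csn3 and Ltf without a count on the CCR6 side. The 9 genes of mast cells and basophils summed to 0.0495 to 58.3 CPM on the CCR6 side and 163 to 444 CPM on the Sca1 side, with Fcer1a and Ms4a2 without a count on the CCR6 side. Of them 0 were called by edgeR, 7 had an unadjusted p under 0.05, and 4 were called by DESeq2 and 5 by limma, all higher on the Sca1 side. The 16 fibroblast genes summed to 444 to 806 CPM in epidermal, 2251 to 3805 in dermal CCR6+ and 4312 to 7115 CPM in Sca1-side libraries. Of these 1 was called (6.25%), near the share over all genes tested. The 12 endothelial genes summed to 3.97 to 8.87 CPM in epidermal and 216 to 818 CPM in all other libraries. Of these 0 were called by edgeR, with 2 at an unadjusted p under 0.05, 1 called by DESeq2 and 9 by limma, again higher on the Sca1 side. The 7 B cell genes summed to 10.03 to 41.02 CPM on the CCR6 side, 196 to 199 in dermal Sca1+ and 223 to 397 in subcutaneous libraries. The 1 called was Ighm, the immunoglobulin mu chain, which made up most of the sums on the Sca1 side (153 to 327 CPM, against 2.79 to 16.1 CPM on the CCR6 side, log2 fold change -4.62 ± 0.51 (SE), adjusted p = 0.00116). Cd79a, Ms4a1 and Cd22 had no count on the CCR6 side or in dermal Sca1+ libraries. Adjusted p-values of marker genes not called do not show that their levels were alike.

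**Figure D3:**
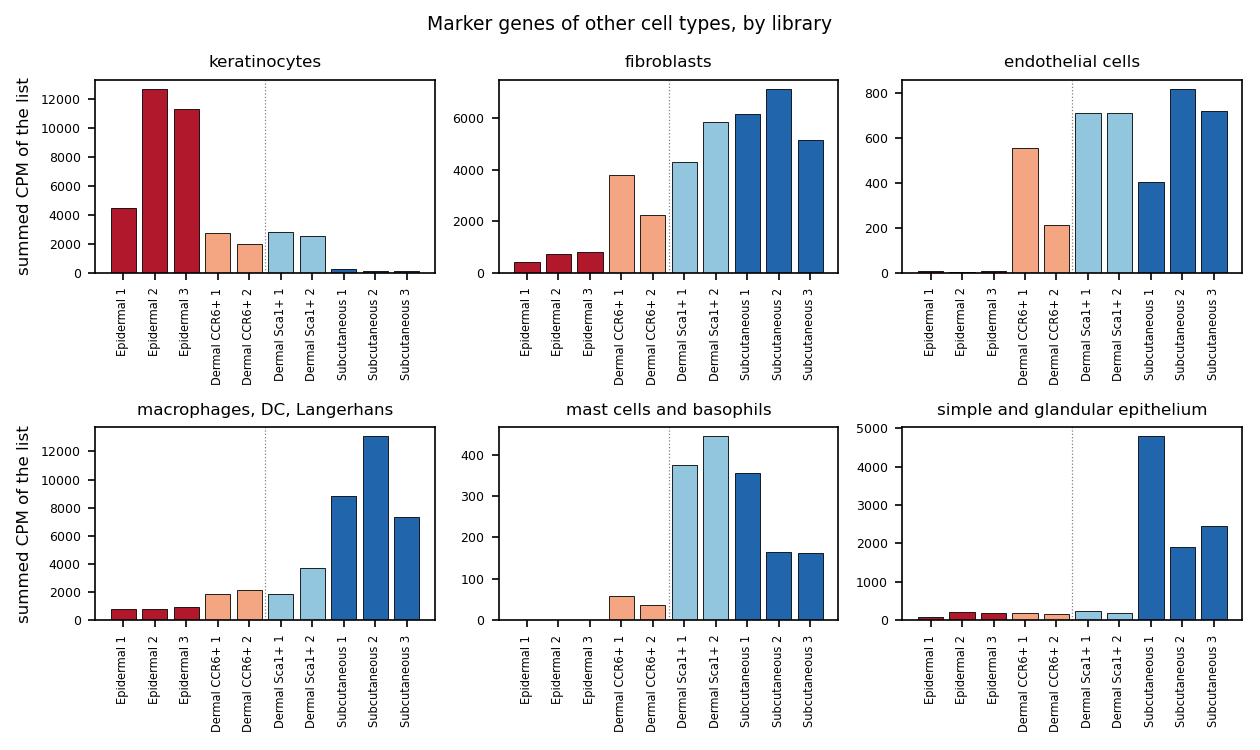
Summed CPM (linear axes from 0) of the tested genes of 6 marker lists in each of the 10 libraries, coloured by population, with a dotted line between the sides. Keratinocyte genes are highest in the epidermal libraries (4444 to 12655 CPM), macrophage and glandular genes in the subcutaneous ones, and mast cell genes are 163 to 444 CPM on the Sca1 side and at most 58.3 CPM on the CCR6 side.

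Of genes known from group 2 ILCs, 1 of 27 tested members was called higher on the CCR6 side and 12 higher on the Sca1 side, with a median log2 fold change of -1.22, beside -0.03 over all genes tested. Of all genes tested, 2.46% were called higher on the CCR6 side and 3.99% higher on the Sca1 side. The counts of this and the following lists are to be read beside these shares. Il5, the eosinophil growth factor, had 142, 64.9 and 79 CPM in epidermal, 259 and 287 in dermal CCR6+, 1648 and 1784 in dermal Sca1+ and 2815, 3132 and 2375 in subcutaneous libraries. For Il5 the log2 fold change was -3.82 ± 0.45 (SE), adjusted p = 0.00166. Csf2, which encodes GM-CSF, had 51.9, 49.2 and 55.4 CPM in epidermal, 56.5 and 21.4 in dermal CCR6+, 340.0 and 256 in dermal Sca1+ and 826, 948 and 1139 in subcutaneous libraries. Csf2 differed by -3.90 ± 0.47 (SE) on the log2 scale, adjusted p = 0.00166. Il2ra, the alpha chain of the IL-2 receptor, had 97.4, 84.7 and 81 CPM in epidermal, 105 and 95.6 in dermal CCR6+, 461 and 448 in dermal Sca1+ and 1082, 904 and 808 in subcutaneous libraries. Il2ra had a log2 fold change of -3.0 ± 0.27 (SE), adjusted p = 0.000325. Both dermal populations differed in these genes as well, with dermal adjusted p-values of 0.00772 for Il5, 0.00948 for Csf2 and 0.00228 for Il2ra. Arg1, the arginase of group 2 ILCs, had 9.57 to 22.9 CPM on the CCR6 side and 67.6 to 886 CPM on the Sca1 side (log2 fold change -4.87 ± 0.76 (SE), adjusted p = 0.0066). Lmo4, a LIM domain regulator, had 51.1 to 201 CPM on the CCR6 side and 537 to 708 CPM on the Sca1 side (log2 fold change -2.39 ± 0.41 (SE), adjusted p = 0.00939). Stab2, a scavenger receptor, had 1.54 to 7.64 CPM on the CCR6 side and 10.7 to 142 CPM on the Sca1 side (log2 fold change -4.49 ± 0.77 (SE), adjusted p = 0.00956). Ltb4r1, a leukotriene B4 receptor, had 51.1 to 98.4 CPM on the CCR6 side and 143 to 364 CPM on the Sca1 side (log2 fold change -1.62 ± 0.28 (SE), adjusted p = 0.00955). Calls of these genes were kept whichever library was left out, as were those of Klrg1 and Il1rl1.

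Gata3, Areg and Pparg, also of that list, did not overlap between the sides but had less stable calls. Gata3, the factor that group 2 ILCs depend on, had 546, 491 and 515 CPM in epidermal, 1084 and 1240 in dermal CCR6+, 2215 and 2006 in dermal Sca1+ and 2000, 1294 and 1513 in subcutaneous libraries. For Gata3 the log2 fold change was -1.22 ± 0.30 (SE), adjusted p = 0.0401. It was present at 491 CPM or more in every library, and the dermal CCR6+ libraries lay between the epidermal ones and the Sca1 side. Its call was lost in 8 of 10 omissions (adjusted p of up to 0.0958). Areg, a ligand of the EGF receptor, had 92.1, 43.1 and 33 CPM in epidermal, 244 and 233 in dermal CCR6+, 689 and 547 in dermal Sca1+ and 723, 574 and 736 in subcutaneous libraries. Areg differed by -2.34 ± 0.53 (SE) on the log2 scale, adjusted p = 0.0294, a call lost in 5 of 10 (up to 0.0695). Pparg, a lipid-sensing nuclear receptor, had 3.2, 1.46 and 3.02 CPM in epidermal, 11.3 and 8.98 in dermal CCR6+, 20.9 and 15.6 in dermal Sca1+ and 72.2, 69.1 and 99.9 in subcutaneous libraries. Pparg had a log2 fold change of -3.31 ± 0.69 (SE), adjusted p = 0.0209, a call lost in 4 of 10 (up to 0.0588). The 1 member that was called in the other direction was Il17rb, the receptor chain for IL-25, which had 150.4, 74.2 and 90.5 CPM in epidermal, 69.8 and 123 in dermal CCR6+, 19.1 and 40.4 in dermal Sca1+ and 15.6, 18.9 and 19.4 in subcutaneous libraries. Every library of the CCR6 side exceeded the highest of the Sca1 side (log2 fold change 2.16 ± 0.32 (SE), adjusted p = 0.00448), and this call was kept under every omission. The receptors for IL-33 and IL-25 thus lay on opposite sides.

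**Figure D4:**
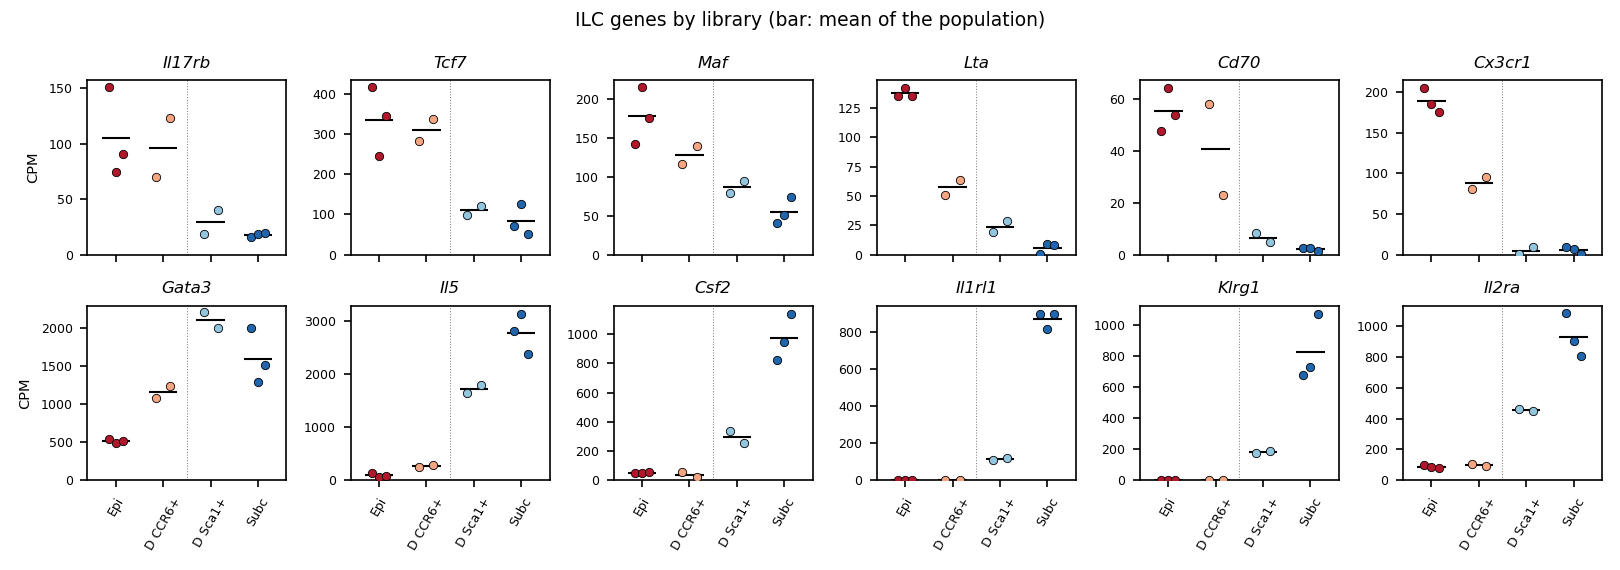
CPM (linear axes from 0) in every library of 12 genes, arranged as epidermal, dermal CCR6+, dermal Sca1+ and subcutaneous, with bars for population means. The upper 6 are higher on the CCR6 side and the lower 6 on the Sca1 side, and the libraries of the sides do not overlap in any of them.

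Genes of group 3 ILCs did not move together. In that list 2 of 22 tested members were called higher on the CCR6 side and 2 higher on the Sca1 side, with a median log2 fold change of -0.10. Lta, lymphotoxin alpha, had 135, 142 and 135 CPM in epidermal, 50.6 and 64 in dermal CCR6+, 19 and 28.4 in dermal Sca1+ and 0.87, 9.18 and 8.17 in subcutaneous libraries. For Lta the log2 fold change was 3.01 ± 0.70 (SE), adjusted p = 0.0322, a call lost in 5 of 10 omissions (up to 0.0824). Maf, a factor shared by several lymphocyte classes, had 143, 216 and 176 CPM in epidermal, 116 and 140.5 in dermal CCR6+, 79.1 and 95.5 in dermal Sca1+ and 40.4, 51.2 and 74.5 in subcutaneous libraries. Maf differed by 1.22 ± 0.26 (SE) on the log2 scale, adjusted p = 0.0228, a call lost in 4 of 10 (up to 0.0593). Tnfsf11, which encodes RANKL, went the other way and had 30.7, 20.8 and 24.3 CPM in epidermal, 56.9 and 55.2 in dermal CCR6+, 66 and 76.5 in dermal Sca1+ and 131, 118 and 107 in subcutaneous libraries. Tnfsf11 had a log2 fold change of -1.41 ± 0.33 (SE), adjusted p = 0.0323, a call lost in 6 of 10 (up to 0.0802). Nrp1 was the other member called higher on the Sca1 side, and its sides overlapped. Of genes of group 1 ILCs and NK cells, 0 of 19 tested members were called higher on the CCR6 side (by edgeR, with 1 at an unadjusted p under 0.05, 1 by DESeq2 and 1 by limma) and 2 higher on the Sca1 side, with a median log2 fold change of -2.51. The called members were Ccl5 and Fcer1g, which is expressed in mast cells and macrophages as well and had 16.4 to 35.8 CPM on the CCR6 side and 56.5 to 397 CPM on the Sca1 side (log2 fold change -2.51 ± 0.53 (SE), adjusted p = 0.0223), a call lost in 3 of 10 omissions (up to 0.0621).

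Of transcription factors, 2 of 34 tested members were called higher on the CCR6 side and 5 higher on the Sca1 side, with a median log2 fold change of -0.12. Beside Maf and Gata3 the clearest was Tcf7, which encodes TCF-1 of early ILCs and T cells and had 416, 245 and 345 CPM in epidermal, 283 and 336 in dermal CCR6+, 98.5 and 122 in dermal Sca1+ and 72.5, 125 and 51.8 in subcutaneous libraries. For Tcf7 the log2 fold change was 1.79 ± 0.26 (SE), adjusted p = 0.0042. Klf6, a zinc finger factor, had 771 to 1285 CPM on the CCR6 side and 1570 to 2742 CPM on the Sca1 side (log2 fold change -1.18 ± 0.22 (SE), adjusted p = 0.0132). The calls of Tcf7 and Klf6 were kept under every omission. Satb1, a chromatin organiser, had 4.23 to 100.3 CPM on the CCR6 side and 174 to 256 CPM on the Sca1 side and Bach2, a repressor of effector genes, had 15.3 to 47.2 CPM on the CCR6 side and 52.9 to 95.5 CPM on the Sca1 side. Both calls (adjusted p = 0.0486 and 0.0338) were lost in 8 and 7 of 10 omissions, with values of up to 0.111 and 0.0822. Klf2 was called with overlapping sides.

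Genes of T cells and their receptor complex were called on the CCR6 side in part. Here 3 of 21 tested members were called higher on the CCR6 side and 0 higher on the Sca1 side (by edgeR, with 1 at an unadjusted p under 0.05, 1 by DESeq2 and 1 by limma), with a median log2 fold change of 0.45. Lck, the kinase next to T cell receptors that ILCs express too, had 660.0, 619 and 591 CPM in epidermal, 519 and 625 in dermal CCR6+, 249 and 162 in dermal Sca1+ and 69.8, 203 and 96.3 in subcutaneous libraries. Lck differed by 1.95 ± 0.32 (SE) on the log2 scale, adjusted p = 0.00731. Cd3g, a CD3 chain, had 233, 341 and 269 CPM in epidermal, 448 and 387 in dermal CCR6+, 196 and 119 in dermal Sca1+ and 92.7, 172 and 194 in subcutaneous libraries. Cd3g had a log2 fold change of 1.12 ± 0.26 (SE), adjusted p = 0.0311, a call lost in 6 of 10 omissions (up to 0.0645). Cd3e, another chain of the same complex, had a log2 fold change of 0.53 ± 0.79 (adjusted p = 0.754), which turned to -0.38 without dermal CCR6+ replicate 1. Thy1, the ILC marker CD90, had 156 to 256 CPM on the CCR6 side and 61 to 155 CPM on the Sca1 side (log2 fold change 0.97 ± 0.25 (SE), adjusted p = 0.0436), a call lost in 9 of 10 omissions (up to 0.102).

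Among cytokine receptors, 3 of 35 tested members were called higher on the CCR6 side and 5 higher on the Sca1 side, with a median log2 fold change of -0.33. Il1r2, Il17rb and Tgfbr1 were those higher on the CCR6 side. Tgfbr1, the signalling receptor of TGF-beta, had 238, 137 and 196 CPM in epidermal, 143 and 87.3 in dermal CCR6+, 45.1 and 42.9 in dermal Sca1+ and 48.6, 62.2 and 22.3 in subcutaneous libraries. For Tgfbr1 the log2 fold change was 1.86 ± 0.32 (SE), adjusted p = 0.00933. Higher on the Sca1 side, beside Il2ra and Il1rl1, were Lifr, Il6st and the interferon receptor chain Ifnar2. Lifr had 2.11 to 14.6 CPM on the CCR6 side and 27.8 to 87.3 CPM on the Sca1 side (log2 fold change -2.91 ± 0.54 (SE), adjusted p = 0.0139). Il6st had 9.65 to 105 CPM on the CCR6 side and 146 to 239 CPM on the Sca1 side (log2 fold change -2.51 ± 0.60 (SE), adjusted p = 0.0363). Ifnar2 had 30.4 to 86.7 CPM on the CCR6 side and 116 to 182 CPM on the Sca1 side (log2 fold change -1.24 ± 0.25 (SE), adjusted p = 0.019). Lifr and Il6st encode the 2 chains of the receptor for LIF. The calls of Tgfbr1 and Lifr were kept under every omission, that of Ifnar2 was lost without epidermal replicate 3 (adjusted p = 0.0509) and that of Il6st in 8 of 10 (up to 0.0853).

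Of secreted cytokines and growth factors, 1 of 36 tested members was called higher on the CCR6 side and 11 higher on the Sca1 side, with a median log2 fold change of -2.01. Csf1, the macrophage growth factor, had 5.53, 5.29 and 5.85 CPM in epidermal, 7.19 and 7.06 in dermal CCR6+, 47.7 and 58.4 in dermal Sca1+ and 181, 108 and 134 in subcutaneous libraries. Csf1 differed by -4.10 ± 0.38 (SE) on the log2 scale, adjusted p = 0.000391. Lif, a cytokine of the IL-6 family, had 5.75, 4.67 and 4.56 CPM in epidermal, 13.2 and 13.5 in dermal CCR6+, 48 and 67.5 in dermal Sca1+ and 182, 119 and 94.2 in subcutaneous libraries. Lif had a log2 fold change of -3.62 ± 0.47 (SE), adjusted p = 0.00271. Its neighbour and relative Osm had 6.23, 8.5 and 4.86 CPM in epidermal, 7.83 and 8.98 in dermal CCR6+, 47.3 and 17 in dermal Sca1+ and 25.9, 48.2 and 33.1 in subcutaneous libraries. For Osm the log2 fold change was -2.24 ± 0.34 (SE), adjusted p = 0.00553. Of chemokines, Cxcl2, which draws neutrophils, had 31.1, 14.3 and 10.6 CPM in epidermal, 31.5 and 24 in dermal CCR6+, 153 and 151 in dermal Sca1+ and 415, 424 and 447 in subcutaneous libraries. Cxcl2 differed by -3.83 ± 0.45 (SE) on the log2 scale, adjusted p = 0.00166. Ccl1, a ligand of CCR8, had 2.18 to 27.6 CPM on the CCR6 side and 47.6 to 139 CPM on the Sca1 side (log2 fold change -2.92 ± 0.56 (SE), adjusted p = 0.0153). Calls of these 5 genes were kept whichever library was left out. Ccl4, an inflammatory chemokine, had 0 CPM in epidermal, 0.257 and 0.792 in dermal CCR6+, 2.29 and 1.63 in dermal Sca1+ and 13.7, 68.9 and 19.9 in subcutaneous libraries. Ccl4 had a log2 fold change of -6.65 ± 1.52 (SE), adjusted p = 0.0312, a call lost in 6 of 10 omissions (up to 0.0894). The 1 ligand called higher on the CCR6 side was Pdgfb, with overlapping sides. Of TNF superfamily ligands, 2 of 16 tested members were called higher on the CCR6 side and 1 higher on the Sca1 side, with a median log2 fold change of -0.11. Beside Lta and Tnfsf11 the called member was Cd70, the ligand of CD27, which had 47.8, 64.1 and 53.8 CPM in epidermal, 58.1 and 22.9 in dermal CCR6+, 8.26 and 4.81 in dermal Sca1+ and 2.61, 2.43 and 1.59 in subcutaneous libraries. For Cd70 the log2 fold change was 3.64 ± 0.49 (SE), adjusted p = 0.00283, also kept under every omission.

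Receptors for position in tissue were divided. Of chemokine receptors and adhesion molecules, 2 of 35 tested members were called higher on the CCR6 side and 3 higher on the Sca1 side, with a median log2 fold change of -0.48. Cxcr4, the receptor of CXCL12, had 174, 142 and 179 CPM in epidermal, 220.0 and 155 in dermal CCR6+, 98.9 and 60.4 in dermal Sca1+ and 50.9, 81.3 and 46.8 in subcutaneous libraries. Cxcr4 differed by 1.36 ± 0.23 (SE) on the log2 scale, adjusted p = 0.00888. Cxcr4 and Cx3cr1 were the members higher on the CCR6 side. On the other side stood Ccr2, Itga4 and Itgb3. Itgb3, the integrin chain beta 3, had 114, 69.6 and 86.6 CPM in epidermal, 127 and 116 in dermal CCR6+, 295 and 348 in dermal Sca1+ and 262, 186 and 234 in subcutaneous libraries. Itgb3 had a log2 fold change of -1.37 ± 0.22 (SE), adjusted p = 0.00688. The calls of Cxcr4 and Itgb3 were kept under every omission.

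Surface molecules of lymphocyte contact split evenly. Of costimulatory and inhibitory receptors, 3 of 25 tested members were called higher on the CCR6 side and 3 higher on the Sca1 side, with a median log2 fold change of 0.26. Cd96, a receptor of nectin-like ligands, had 350.4, 275 and 329 CPM in epidermal, 316 and 427 in dermal CCR6+, 154 and 131 in dermal Sca1+ and 59.3, 118 and 74.8 in subcutaneous libraries. For Cd96 the log2 fold change was 1.66 ± 0.26 (SE), adjusted p = 0.00671. Cd52, a small glycoprotein of lymphocytes, had 1199 to 1855 CPM on the CCR6 side and 403 to 755 CPM on the Sca1 side (log2 fold change 1.22 ± 0.20 (SE), adjusted p = 0.00865). Cd48, a ligand of CD244, had 178 to 316 CPM on the CCR6 side and 78.4 to 132 CPM on the Sca1 side (log2 fold change 1.21 ± 0.21 (SE), adjusted p = 0.00958). Klrg1 and Cd200r1 were higher on the Sca1 side, as was Cd81, a tetraspanin, with 152 to 412 CPM on the CCR6 side and 482 to 766 CPM on the Sca1 side (log2 fold change -1.20 ± 0.25 (SE), adjusted p = 0.0216). Of TNF receptors, 2 of 21 tested members were called higher on the Sca1 side, with a median log2 fold change of -0.33. Of the list's members, 0 were called higher on the CCR6 side by edgeR, 3 had an unadjusted p under 0.05, and 1 was called by DESeq2 and 2 by limma. The TNF receptor gene Tnfrsf8, described above, is not on this list and was called higher on the CCR6 side (adjusted p = 0.00347, edgeR). Calls made up 9.52% of this list, near the 6.45% of all genes tested. Tnfrsf18, which encodes GITR, had 251, 274 and 246 CPM in epidermal, 420.5 and 525 in dermal CCR6+, 916 and 908 in dermal Sca1+ and 745, 691 and 1024 in subcutaneous libraries. Tnfrsf18 differed by -1.32 ± 0.24 (SE) on the log2 scale, adjusted p = 0.0135. Calls of these genes were kept under every omission except that of Cd81, lost in 4 of 10 (up to 0.0585).

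The Gimap genes, a cluster of GTPases of lymphocytes on chromosome 6, were the list with the highest share of calls. Of them, 0 of 8 tested members were called higher on the CCR6 side (by edgeR, and also 0 at an unadjusted p under 0.05, by DESeq2 and by limma) and 6 higher on the Sca1 side, with a median log2 fold change of -5.48. Gimap1 had 4.82, 6.9 and 6.69 CPM in epidermal, 6.16 and 3.3 in dermal CCR6+, 43.7 and 42.5 in dermal Sca1+ and 101, 78.2 and 124 in subcutaneous libraries. Gimap1 had a log2 fold change of -3.80 ± 0.37 (SE), adjusted p = 0.000465. Gimap6 had 3.2, 3.9 and 5.2 CPM in epidermal, 13.3 and 8.52 in dermal CCR6+, 66.8 and 81.6 in dermal Sca1+ and 469, 526 and 496 in subcutaneous libraries. For Gimap6 the log2 fold change was -5.58 ± 0.75 (SE), adjusted p = 0.00283. Gimap3 had 0.921, 0 and 0.149 CPM in epidermal, 1.48 and 3.56 in dermal CCR6+, 33.4 and 54.2 in dermal Sca1+ and 683, 496 and 753 in subcutaneous libraries. Gimap3 differed by -8.37 ± 1.34 (SE) on the log2 scale, adjusted p = 0.00672. All 3 were higher in dermal Sca1+ than in dermal CCR6+ libraries (adjusted p = 0.00501, 0.00249 and 0.0307), and Gimap6 and Gimap3 were higher again in subcutaneous libraries (adjusted p = 0.00112 and 0.0133). Gimap5 had 0 to 3.52 CPM on the CCR6 side and 11.1 to 109 CPM on the Sca1 side (log2 fold change -5.37 ± 1.02 (SE), adjusted p = 0.0148). Gimap4 had 0 to 3.92 CPM on the CCR6 side and 10.5 to 210.3 CPM on the Sca1 side (log2 fold change -6.21 ± 1.46 (SE), adjusted p = 0.0335). The call of Gimap4 was lost in 7 of 10 omissions (up to 0.0822), and those of Gimap1, Gimap3, Gimap5 and Gimap6 were kept in all. Reads of Gimap genes, which are similar in sequence, may be split with error.

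**Figure D5:**
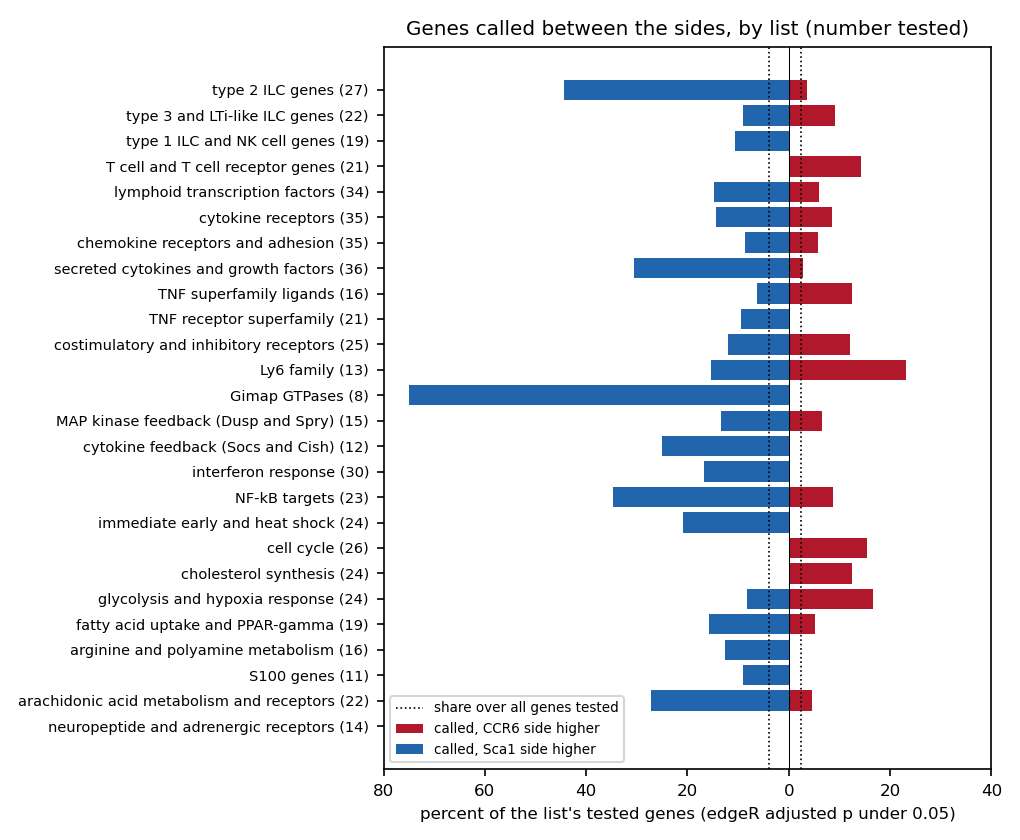
Share of the tested genes of 26 lists of ILC genes, signalling and metabolism (cell marker lists are not drawn) that were called higher on the CCR6 side (red, right) or the Sca1 side (blue, left), with the number tested in parentheses and dotted lines at the shares over all genes tested (2.46% and 3.99%). Of these lists, Gimap GTPases and group 2 ILC genes have the longest bars, both towards the Sca1 side. Cell cycle, cholesterol and T cell genes have bars to the CCR6 side only.

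Of targets of NF-kB, 2 of 23 tested members were called higher on the CCR6 side and 8 higher on the Sca1 side, with a median log2 fold change of -1.09. The 2 on the CCR6 side were the survival genes Bcl2a1b and Bcl2a1d, close copies between which reads may be split. Bcl2a1b had 278, 240.5 and 229 CPM in epidermal, 343 and 272 in dermal CCR6+, 116 and 97.4 in dermal Sca1+ and 42.3, 99.6 and 49.7 in subcutaneous libraries. Bcl2a1b had a log2 fold change of 1.75 ± 0.29 (SE), adjusted p = 0.00768. Bcl2a1d had 309, 322 and 313 CPM in epidermal, 340.5 and 319.6 in dermal CCR6+, 145 and 113 in dermal Sca1+ and 74.7, 125 and 77.1 in subcutaneous libraries. For Bcl2a1d the log2 fold change was 1.58 ± 0.20 (SE), adjusted p = 0.00222. Higher on the Sca1 side, Birc3, an inhibitor of cell death, had 69.7 to 232 CPM on the CCR6 side and 285 to 397 CPM on the Sca1 side (log2 fold change -1.43 ± 0.30 (SE), adjusted p = 0.0207), and Nfkbiz, Nfkbia, Nfkbid and Bcl3, regulators of the NF-kB response, had adjusted p-values of 0.0298, 0.0357, 0.046 and 0.0218. Of the called genes of this list, Bcl2a1b, Bcl2a1d and Cxcl2 kept their calls under every omission, and Birc3 and the 4 regulators reached adjusted p-values of 0.0542 to 0.107. Of immediate early and heat shock genes, 0 of 24 tested members were called higher on the CCR6 side (by edgeR, and also 0 at an unadjusted p under 0.05, by DESeq2 and by limma) and 5 higher on the Sca1 side, with a median log2 fold change of -1.0. Myc, a driver of growth, had 44, 44.2 and 42 CPM in epidermal, 63.5 and 47.7 in dermal CCR6+, 145 and 108 in dermal Sca1+ and 130.1, 86.6 and 119.7 in subcutaneous libraries. Myc differed by -1.29 ± 0.18 (SE) on the log2 scale, adjusted p = 0.00372, a call kept under every omission. Egr1, an early response factor, had 147 to 307 CPM on the CCR6 side and 325 to 654 CPM on the Sca1 side (log2 fold change -1.26 ± 0.27 (SE), adjusted p = 0.0232), a call lost in 5 of 10 (up to 0.0651). Of cytokine feedback genes, 0 of 12 tested members were called higher on the CCR6 side (by edgeR, and also 0 at an unadjusted p under 0.05, by DESeq2 and by limma) and 3 higher on the Sca1 side, with a median log2 fold change of -0.29. Socs2 had 13.6, 18.4 and 9.46 CPM in epidermal, 56.8 and 65.3 in dermal CCR6+, 196 and 218 in dermal Sca1+ and 254, 223 and 270.1 in subcutaneous libraries. Socs2 had a log2 fold change of -2.83 ± 0.52 (SE), adjusted p = 0.0132, a call kept in all. Socs5 and Ptpn2 (adjusted p = 0.028 and 0.0369) lost their calls in 4 and 8 of 10. Of genes of MAP kinase feedback, 1 of 15 tested members was called higher on the CCR6 side and 2 higher on the Sca1 side, with a median log2 fold change of -0.65. Dusp4, a phosphatase of MAP kinases, was higher on the CCR6 side, with 20.7 to 72.8 CPM on the CCR6 side and 6.88 to 18.9 CPM on the Sca1 side (log2 fold change 1.96 ± 0.41 (SE), adjusted p = 0.0211), a call lost in 3 of 10 (up to 0.0586), and so opposite in sign to Spry2.

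Of interferon response genes, 0 of 30 tested members were called higher on the CCR6 side (by edgeR, and also 0 at an unadjusted p under 0.05, by DESeq2 and by limma) and 5 higher on the Sca1 side, with a median log2 fold change of -1.99. Rsad2, which encodes viperin, had 1.41, 1.04 and 0 CPM in epidermal, 3.53 and 0.66 in dermal CCR6+, 23.3 and 19.2 in dermal Sca1+ and 52.7, 89 and 36.5 in subcutaneous libraries. For Rsad2 the log2 fold change was -5.05 ± 0.94 (SE), adjusted p = 0.0139. Bst2, the antiviral tetherin, had 26.5 to 43.4 CPM on the CCR6 side and 59.7 to 154 CPM on the Sca1 side (log2 fold change -1.63 ± 0.30 (SE), adjusted p = 0.0137). Both calls were kept under every omission. Oas1a and Ifi27l2a (adjusted p = 0.0428 and 0.0279) lost their calls in 7 of 10 each. Within the list, 8 genes were called in the departure between both pairs.

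Lipid mediators were divided between their receptors. Of genes of arachidonic acid metabolism and its receptors, 1 of 22 tested members was called higher on the CCR6 side and 6 higher on the Sca1 side, with a median log2 fold change of -0.81. Ptger4, the EP4 receptor of prostaglandin E2, was the one higher on the CCR6 side, with 450.4, 274 and 295 CPM in epidermal, 166 and 177 in dermal CCR6+, 107 and 91.7 in dermal Sca1+ and 93.5, 65 and 54 in subcutaneous libraries. Ptger4 differed by 1.73 ± 0.30 (SE) on the log2 scale, adjusted p = 0.0106. Ptger3, the EP3 receptor of the same ligand, had 0.488, 0 and 0.743 CPM in epidermal, 1.8 and 0.066 in dermal CCR6+, 9.09 and 6.45 in dermal Sca1+ and 9.1, 8.14 and 15.9 in subcutaneous libraries. Ptger3 had a log2 fold change of -3.95 ± 1.0 (SE), adjusted p = 0.0428. Both receptors thus lay on opposite sides. Ptgir, the prostacyclin receptor, had 80.2, 43.3 and 63.9 CPM in epidermal, 89.9 and 119.5 in dermal CCR6+, 317 and 165 in dermal Sca1+ and 369, 187 and 251 in subcutaneous libraries. For Ptgir the log2 fold change was -1.70 ± 0.30 (SE), adjusted p = 0.0119. Ptgs2, the inducible cyclooxygenase, had 7.91, 4.88 and 3.72 CPM in epidermal, 7.77 and 3.3 in dermal CCR6+, 8.96 and 31.5 in dermal Sca1+ and 109.5, 92 and 46.9 in subcutaneous libraries. Ptgs2 differed by -3.39 ± 0.61 (SE) on the log2 scale, adjusted p = 0.0121. Alox5ap, which serves 5-lipoxygenase, had 0 to 2.97 CPM on the CCR6 side and 4.51 to 97.1 CPM on the Sca1 side (log2 fold change -5.43 ± 1.33 (SE), adjusted p = 0.0382). Calls of Ptger4, Ptgir and Ptgs2 were kept under every omission, and those of Ptger3 and Alox5ap were lost in 8 and 6 of 10 (up to 0.101 and 0.0952).

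Of cell cycle genes, 4 of 26 tested members were called higher on the CCR6 side and 0 higher on the Sca1 side (by edgeR, and also 0 at an unadjusted p under 0.05, by DESeq2 and by limma), with a median log2 fold change of 1.21, and 11 of 26 had all CCR6-side libraries above all of the Sca1 side, beside 4.12% of all genes. Top2a, a topoisomerase of dividing cells, had 155, 90.5 and 81.8 CPM in epidermal, 79.3 and 106 in dermal CCR6+, 49.3 and 49.2 in dermal Sca1+ and 31.1, 64.9 and 18.6 in subcutaneous libraries. Top2a had a log2 fold change of 1.27 ± 0.32 (SE), adjusted p = 0.0441. Ccnb2, a mitotic cyclin, had 36.1, 22.9 and 35.9 CPM in epidermal, 41.1 and 43.5 in dermal CCR6+, 17 and 8.34 in dermal Sca1+ and 10.1, 19.5 and 7.69 in subcutaneous libraries. For Ccnb2 the log2 fold change was 1.52 ± 0.32 (SE), adjusted p = 0.0241. The calls of Top2a, Ccnb2, Mcm3 and Tk1 were lost in 8, 3, 7 and 8 of 10 omissions. Of cholesterol synthesis genes, 3 of 24 tested members were called higher on the CCR6 side and 0 higher on the Sca1 side (by edgeR, and also 0 at an unadjusted p under 0.05, by DESeq2 and by limma), with a median log2 fold change of 0.71, and none of these calls was kept in all omissions. Insig1, a sterol sensor, had 90.3 to 180.5 CPM on the CCR6 side and 38.2 to 83.4 CPM on the Sca1 side (log2 fold change 1.20 ± 0.27 (SE), adjusted p = 0.0312). Fdps, an enzyme of the pathway, had 181 to 347 CPM on the CCR6 side and 28.1 to 141 CPM on the Sca1 side (log2 fold change 1.81 ± 0.42 (SE), adjusted p = 0.0317). Of glycolysis and hypoxia genes, 4 of 24 tested members were called higher on the CCR6 side and 2 higher on the Sca1 side, with a median log2 fold change of 0.42. The enzyme Tpi1 had 370.5 to 498 CPM on the CCR6 side and 200.4 to 269.7 CPM on the Sca1 side (log2 fold change 0.91 ± 0.14 (SE), adjusted p = 0.00671). Pgam1, another enzyme of the pathway, had 333 to 378 CPM on the CCR6 side and 139 to 213 CPM on the Sca1 side (log2 fold change 0.97 ± 0.15 (SE), adjusted p = 0.00603). The glucose transporter Slc2a3 went the other way, with 19.4, 11.2 and 13.5 CPM in epidermal, 24.6 and 19 in dermal CCR6+, 59.4 and 35.2 in dermal Sca1+ and 103, 78 and 93.7 in subcutaneous libraries. Slc2a3 differed by -2.07 ± 0.32 (SE) on the log2 scale, adjusted p = 0.00614. Scd2, a fatty acid desaturase, had 163 to 269 CPM on the CCR6 side and 69.5 to 109 CPM on the Sca1 side (log2 fold change 1.08 ± 0.20 (SE), adjusted p = 0.0129). Plin2, which coats lipid droplets, had 18.2 to 81.8 CPM on the CCR6 side and 138 to 379.8 CPM on the Sca1 side (log2 fold change -2.41 ± 0.47 (SE), adjusted p = 0.0155). Tpi1, Pgam1, Slc2a3, Scd2 and Plin2 were called under every omission. Of 14 neuropeptide and adrenergic receptor genes, 0 were called between the sides by edgeR, 5 had an unadjusted p under 0.05, and DESeq2 and limma called 4 each.

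The sides were not equally even across layers. The departure between both pairs was called for 19 of the 351 called genes that lay wholly higher on the CCR6 side (5.41%) and for 104 of the 496 on the Sca1 side (21.0%), beside 4.78% of all genes. The genes with the smallest p in that test were Krt10, Col3a1, Lyz2, Sparcl1, Cfp and Susd2. Col3a1, a fibrillar collagen, had 0.0542, 0.139 and 0.198 CPM in epidermal, 555 and 327 in dermal CCR6+, 703 and 1230 in dermal Sca1+ and 1453, 1779 and 1189 in subcutaneous libraries, and Lyz2, lysozyme of myeloid cells, had 0.0542, 0 and 0.198 CPM in epidermal, 161 and 149 in dermal CCR6+, 248 and 396 in dermal Sca1+ and 2750, 4509 and 2320 in subcutaneous libraries. Both were nearly absent from epidermal libraries only, did not overlap between the sides, and were not called between them (adjusted p = 0.359 and 0.137). Sparcl1 and Cfp, known from vessels and from myeloid cells, had no more than 0.0542 CPM in epidermal libraries and at least 39.7 and 5.48 CPM in the others. Susd2, a membrane protein with a sushi domain, had 1074, 999 and 996 CPM in epidermal, 805 and 799.9 in dermal CCR6+, 221 and 173 in dermal Sca1+ and 17.9, 20.9 and 17.3 in subcutaneous libraries. Susd2 had a log2 fold change of 3.38 ± 0.77 (SE), adjusted p = 0.0305. Its dermal log2 fold change was 2.03 ± 0.20 (SE), adjusted p = 0.00228. That of epidermal over subcutaneous libraries was 5.77 ± 0.20 (SE), adjusted p = 2.28e-07. The call of Susd2 between the sides was lost in 6 of 10 omissions (up to 0.062). Within the sides, 1001 genes (6.18%) were called between epidermal and dermal CCR6+ and 357 (2.2%) between dermal Sca1+ and subcutaneous libraries, the second count falling to 157 without dermal Sca1+ replicate 1. Leaving out 1 library gave 498 (without dermal Sca1+ replicate 1) to 968 genes (without epidermal replicate 1) in the test of the departure.

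Called genes of one side often had a neighbour that was also called for that side. Of 350 placed genes of the CCR6 side that were called and did not overlap, 69 (19.7%) had another such gene within 100 kb, as did 1452 of all 16167 placed genes (8.98%). For the Sca1 side 81 of 494 genes had one (16.4%), beside 9.48% of all genes. On chromosome 17, Tff1, Tmprss3 and Ubash3a lie in this order, with 42596 bases between Tff1 and Ubash3a, and all 3 were higher on the CCR6 side. On chromosome 2, Slc34a3, Cysrt1, Rnf208 and Tmem203 lie within 100 kb of each other and were all higher on that side. Pairs of the Sca1 side included Osm and Lif on chromosome 11 (16531 bases apart), Csf2 and Il3 on the same chromosome (15636 bases apart) and 5 Gimap genes on chromosome 6. Gene families, overlapping genes and shared reads are part of these counts, and no test was made of them.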

How the data were processed

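Total RNA was isolated on columns, and SMART-Seq Ultra Low Input and Nextera XT libraries were made, per the labels' protocols. The authors used STAR, RSEM and Trimmomatic with genome build mm10, per the submitters' processing notes. The versions, the settings and the gene annotation were not given in the sources used here. The deposited expected counts are, per the file headers, RSEM's estimates per gene, in which ambiguous reads are split. The deposited TPM values, also RSEM's per the file headers, served in 1 alternative. FPKM was not used. The kit does not mark strand.

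Groups follow the titles, since the cell type label of the second library of either dermal sort names no marker. Gene IDs (47643) were matched to GENCODE M21 (GRCm38), 47224 with a symbol. Expected counts were rounded. Genes were kept by filterByExpr over the 4 populations (count minimum 10), which left 16208. With TMM scaling, edgeR 4.0.16 (R 4.3.3) fitted the quasi-likelihood model with side as the only term to all 10 libraries. A second model had the 4 populations as terms. Calls have a Benjamini-Hochberg adjusted p under 0.05, two-sided. The SE is the absolute log2 fold change over the square root of F. CPM levels carry no prior count. Flat genes used log2 CPM with a prior count of 2. Ratios and floors (3 counts) cover counting error only. Ratios have 95% exact binomial intervals of the share of counts, turned into ratios, and floors have no interval. The test was checked on simulated counts. Tables and figures used Python 3.11.15, pandas 2.3.3 and matplotlib 3.10.9.

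The populations, the members and the gene lists were chosen with earlier results of these data known. Named per direction, among called genes that did not overlap with a mean of at least 20 CPM on the higher side, were the 6 with the largest fold change, the 12 with the largest gap between sides and the 8 flat genes with the largest gap (the last 2 sets outside marker lists, all without predicted genes). Also named were the 6 genes with the smallest p in the departure between both pairs, the genes of the sort markers and of ILC identity, and list members that were called and did not overlap. A few genes are not reported here and were left out of the lists. Alternatives were RLE scaling, DESeq2 1.42.0, limma 3.58.1 on log2(TPM + 1), other filters, robust dispersions, the 4-population mean contrast, a fold change threshold, a replicate block, other limits for flat genes and leaving out each library.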

Additional observations from a re-analysis of the deposited data

Results flagged for a closer look

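Of 270 groups of 5 libraries (135 genes named or listed, on 2 sides), 28 had a highest or lowest library whose gap to the next exceeded Dixon's 95% critical value of 0.71 of the range. For values from 1 normal distribution, chance alone gives this in about 1 in 20 groups. The groups here mix 2 populations, some hold values at or near 0, and they share libraries, so that rate does not apply to them. On the CCR6 side, dermal CCR6+ replicate 1 was the highest library for Alox5 (2.63 CPM), Cd209f (1.41 CPM), Cd3e (80.1 CPM), Il6st (105 CPM), Itgam (5.46 CPM), Itgax (2.31 CPM), Myc (63.5 CPM) and Ncr1 (1.86 CPM) and the lowest for Tff1 (52.4 CPM). On the Sca1 side, subcutaneous replicate 2 was the highest library for Arnt2 (12.4 CPM), Ccl4 (68.9 CPM), Fcer1g (397 CPM), Mcm3 (74 CPM) and Ncr1 (63.6 CPM). On the Sca1 side, dermal Sca1+ replicate 2 was the highest library for Il17rb (40.4 CPM), Tff1 (0.773 CPM) and Tnfrsf8 (0.688 CPM). On the CCR6 side, epidermal replicate 1 was the highest library for Il1rl1 (3.47 CPM), Pirb (3.47 CPM) and Ptprc (1270 CPM). On the Sca1 side, subcutaneous replicate 1 was the highest library for Bach2 (95.5 CPM) and Nedd4l (52.8 CPM). On the CCR6 side, epidermal replicate 2 was the highest library for Ctnna2 (0.0697 CPM) and Tk1 (35.5 CPM). On the Sca1 side, subcutaneous replicate 3 was the highest library for Lmo4 (708 CPM) and Ptger3 (15.9 CPM). On the CCR6 side, dermal CCR6+ replicate 2 was the lowest for Csf2 (21.4 CPM). On the Sca1 side, dermal Sca1+ replicate 1 was the highest library for Hal (2.73 CPM).

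For 37 of the 135 genes, the difference between epidermal and subcutaneous libraries departed from that between dermal CCR6+ and dermal Sca1+ libraries in edgeR's test of the departure (adjusted p under 0.05). The value is the first log2 fold change minus the second, and where a population was at or near 0 it depends on the prior count and is no bound. It was above 0 for 7 genes, which were Skint10 (10.07), Hal (9.55), Krt10 (7.95), Susd2 (3.74), Ly6g5b (2.38), Crmp1 (2.22) and Fdps (2.04). Of 30 genes with a value under 0, the lowest were Cfp (-14.56), Lyz2 (-13.88), Col3a1 (-12.23), Gimap4 (-11.87), Sparcl1 (-11.81), Itgam (-11.80), Alox5 (-10.63), Cd209f (-10.34) and Ccl4 (-10.14). Values between were found for Alox5ap (-7.52), Gimap3 (-6.61), Klrg1 (-5.02), Gimap6 (-4.16), Pparg (-4.11) and Ifi27l2a (-3.50). The rest were Slc7a8 (-2.75), Plin2 (-2.74), Lif (-2.61), Hs3st1 (-2.56), Socs2 (-2.42), Areg (-2.22), Il5 (-2.21), Arg1 (-2.17), Lmo4 (-1.91), Tnfsf11 (-1.89), Csf1 (-1.77), Bst2 (-1.65), Ltb4r1 (-1.49), Egr1 (-1.45) and Il2ra (-1.23).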

How the results depend on the processing

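Every named gene but Cd3e, which was not called and turned to a log2 fold change of -0.38 without dermal CCR6+ replicate 1, kept its sign between the sides in the alternatives that were run. DESeq2 gave no adjusted p for Satb1. The counts of calls depended on the test. DESeq2 called 909 genes higher and 1459 lower on the CCR6 side, 400 flat genes of the CCR6 side, 557 genes in the dermis, 1618 in the departure between both pairs, 2001 between epidermal and dermal CCR6+ and 1193 between dermal Sca1+ and subcutaneous libraries. It shared 1041 of the 1046 calls. Limma on log2(TPM + 1) called 939 and 1220 genes (909 shared), 391 flat genes of the CCR6 side and 891 between dermal Sca1+ and subcutaneous libraries. The mean contrast of the 4-population model called 818 and 1601 (1028 shared). With no filter beyond 1 count, 647 genes were called in the dermis, 1823 in the departure, 2028 between epidermal and dermal CCR6+ and 1328 between dermal Sca1+ and subcutaneous libraries. A log2 fold change of at least 1 left 167 flat genes of the CCR6 side, and a limit of 0.5 within sides left 158 and 105 flat genes. The causes were not tested. The share of calls higher on the CCR6 side was 38.1% and moved to 36.4% with RLE, 38.4% with DESeq2 and 43.5% with limma, and the median over all genes moved from -0.03 to -0.05, -0.05 and 0.04.

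With 1 library left out, 186 to 465 genes were called higher and 239 to 944 lower on the CCR6 side, 35 to 155 in the dermis, 498 to 968 in the departure and 157 to 420 between dermal Sca1+ and subcutaneous libraries. Flat genes numbered 140 to 294 and 121 to 357, and genes with the Sca1 side above 936 to 1455, fewer libraries making non-overlap easier. Where 1 library of a dermal population remained, its spread was taken from the other populations.

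Same-numbered libraries of different populations had correlations of -0.038 to 0.114 in their deviations from population means, 1 of 13 above 0.1. Differently numbered ones had -0.101 to 0.0877, 0 of 24 above 0.1. With 2 libraries in a population the deviations mirror each other, so these values cannot decide whether replicate numbers pair the libraries. With a replicate block, 212 and 267 genes were called (466 of 479 shared with the fit without the block), 165 and 146 flat genes, 64 genes in the dermis and 203 between dermal Sca1+ and subcutaneous libraries.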
